A study of Homo sapiens with 90 samples.

Results

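The genes examined here are H19, IGF2, DLK1, AFP and GPC3, a group of imprinted and fetal liver genes, in HepaRG cells. They were chosen from earlier results on these same arrays, in which H19 stood out, and their concentration differences are therefore given as descriptions without p-values. Their probe sets were taken by a symbol rule, under which a probe set counts if the platform annotation gives it a member as its only gene symbol. That rule found 7 of the 54715 probe sets on the array, 2 for H19, 2 for DLK1, 1 for AFP and 2 for GPC3. IGF2 has 0 such probe sets, because the 3 probe sets that carry its symbol also carry that of the INS-IGF2 readthrough gene, and their values are not analysed here. The label of the group therefore rests on 4 of its 5 genes, and IGF2 is represented only through other genes of its pathway.

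HepaRG is a human hepatoma line that differentiates into cells with many hepatocyte functions alongside biliary-like cells. Cultures received 1 of 3 pesticides for 24 h, the triazole fungicide fenbuconazole, the imidazole fungicide imazalil or the chlorophenoxy herbicide 2,4-D. Each was given at 9 concentrations between 0.001 and 10 µM with 3 replicates, and 3 arrays of DMSO vehicle served as the common control of all 3 chemicals. Expression was measured on Affymetrix HT HG-U133+ PM arrays and deposited as log2 values, on which 1 unit is a doubling. Normalization was done separately for every chemical and always included the DMSO arrays, which therefore appear as 9 of the 90 columns although they are 3 physical arrays, and differences were taken only within the 30 columns of a chemical. The replicates carry a P code (P1, P2 or P3), which was taken as the batch of cells. All groups derive from 1 cell line, and p-values measure the spread between its cultures.

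H19 is a long noncoding RNA that in normal tissue is transcribed from the maternal chromosome, while its neighbour IGF2, a growth factor of fetal life, is transcribed from the paternal one, under a shared control region bound by CTCF. AFP encodes alpha-fetoprotein, the main serum protein of the fetal liver and a neighbour of albumin. DLK1 encodes a membrane protein of the Notch ligand family that marks hepatoblasts and is itself imprinted, and GPC3 encodes a heparan sulfate proteoglycan. H19, AFP, DLK1, GPC3 and IGF2 are all high in fetal liver, fall after birth and can return in liver tumours. H19 is also the host transcript of the microRNA miR-675.

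In assembly GRCh38.p14, H19 lies on chromosome 11 at 1995176-2001266 and IGF2 at 2129117-2149566 on the same chromosome. DLK1 lies on chromosome 14 at 100726892-100738224, AFP on chromosome 4 at 73436221-73456174 and GPC3 on the X chromosome at 133535745-133985594. RefSeq sequences were available here for 2 of the 5 promoters, those of H19 and AFP, and for the mature miR-675. The miRNA is shown because it is cut from the member transcript with the largest differences, although these arrays do not measure mature miRNAs. Its arms map to chr11:1996800-1996822 and chr11:1996768-1996787 on the minus strand, inside the span of H19, and capitals mark the seed (bases 2 to 8).
hsa-miR-675-5p: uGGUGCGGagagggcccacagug
hsa-miR-675-3p: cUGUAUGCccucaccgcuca
The promoters are shown because H19 and AFP are both classic fetal liver transcripts, and a link between their motifs and their levels was not tested. Each covers 250 bases before and 50 bases from the start of the gene, H19 at chr11:2001217-2001516 on the minus strand and AFP at chr4:73435971-73436270 on the plus strand, and capitals mark matches to 3 motifs.
H19 promoter: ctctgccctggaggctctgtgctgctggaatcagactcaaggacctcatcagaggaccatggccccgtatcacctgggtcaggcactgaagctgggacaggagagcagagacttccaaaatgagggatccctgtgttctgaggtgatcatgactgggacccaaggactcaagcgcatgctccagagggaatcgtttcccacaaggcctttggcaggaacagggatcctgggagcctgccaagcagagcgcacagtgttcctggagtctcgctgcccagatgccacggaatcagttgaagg
AFP promoter: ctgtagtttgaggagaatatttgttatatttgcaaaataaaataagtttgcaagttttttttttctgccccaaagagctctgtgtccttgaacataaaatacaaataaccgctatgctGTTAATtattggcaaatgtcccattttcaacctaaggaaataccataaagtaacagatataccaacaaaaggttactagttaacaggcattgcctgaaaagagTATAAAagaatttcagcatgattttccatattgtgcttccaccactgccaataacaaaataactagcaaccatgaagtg
The motifs were searched on both strands. The first was GTTAAT, a core of the site of the hepatocyte factor HNF1. The second was TATAAA, the form of the box bound by the general factor TBP. The third was GCGTG, the core of the element bound by the aryl hydrocarbon receptor, and no matches overlapped. The AFP window held 1 GTTAAT at -132 and 1 TATAAA at -29 from the start, both on the plus strand, and 0 GCGTG. The H19 window held 0 matches to each of the 3 motifs. Of 35116 promoter windows of the same length, 6.88% held GTTAAT, 11.5% TATAAA and 36.5% GCGTG.

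H19 fell at 10 µM of fenbuconazole and imazalil, and it was among the most variable transcripts of the whole series. Over the 27 chemical and concentration conditions the variance of its difference from DMSO was 0.21 for probe set 224646_PM_x_at, rank 15 of 54715, and 0.07 for probe set 224997_PM_x_at, rank 118, against a median of 0.0096 over all probe sets. The first of these was the brighter one, with a mean log2 level of 5.91 over the 90 columns and a range of 4.29 to 6.73. The second, dimmer one averaged 3.57 and ranged between 2.67 and 4.43, close to the array medians of 2.81 to 2.97. Both carry the suffix that marks probes shared with other transcripts, so a contribution from related sequences cannot be told apart from H19 itself.

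At 10 µM fenbuconazole the level of the brighter H19 probe set was 4.51, 4.55 and 4.91 (log2, P1 to P3), against 5.81, 6.15 and 5.88 in DMSO. The 3 treated arrays all lay below the 3 DMSO arrays. The log2 difference was -1.29 (SE 0.23, 95% interval -1.76 to -0.82), a level 2.45-fold lower in treated cells and the 2nd lowest difference of all probe sets. With imazalil at 10 µM it was 4.29, 4.34 and 4.86, against 5.86, 6.22 and 5.84 in DMSO, again without overlap. That log2 difference was -1.48 (SE 0.28, interval -2.05 to -0.90), or 2.78-fold lower, and ranked 3rd lowest. With 2,4-D at 10 µM it was 5.58, 4.94 and 5.25, against 5.82, 6.15 and 5.81 in DMSO. These arrays did not overlap either, but the difference was smaller at -0.67 (SE 0.22, interval -1.12 to -0.21), 1.59-fold lower and 9th lowest.

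At a false discovery rate of 0.05 over all probe sets (limma, Benjamini-Hochberg), the comparison of 10 µM with DMSO called 1 of the 7 member probe sets for fenbuconazole and 1 for imazalil, the brighter one of H19 each time, and 0 for 2,4-D. Over all probe sets the same comparisons called 0.345% for fenbuconazole, 0.406% for imazalil and 0% for 2,4-D, where limma gave 3035 probe sets an unadjusted p under 0.05. Since H19 was chosen from these contrasts, nothing is read from those counts. The fenbuconazole call was lost without P2 (difference -1.14) and when the H19 probe sets were averaged (-0.84), and the imazalil call was lost without P2 (-1.27) and without P3 (-1.72). Below 10 µM, 0 member probe sets were called in the 24 comparisons with DMSO.

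**Figure D1:**
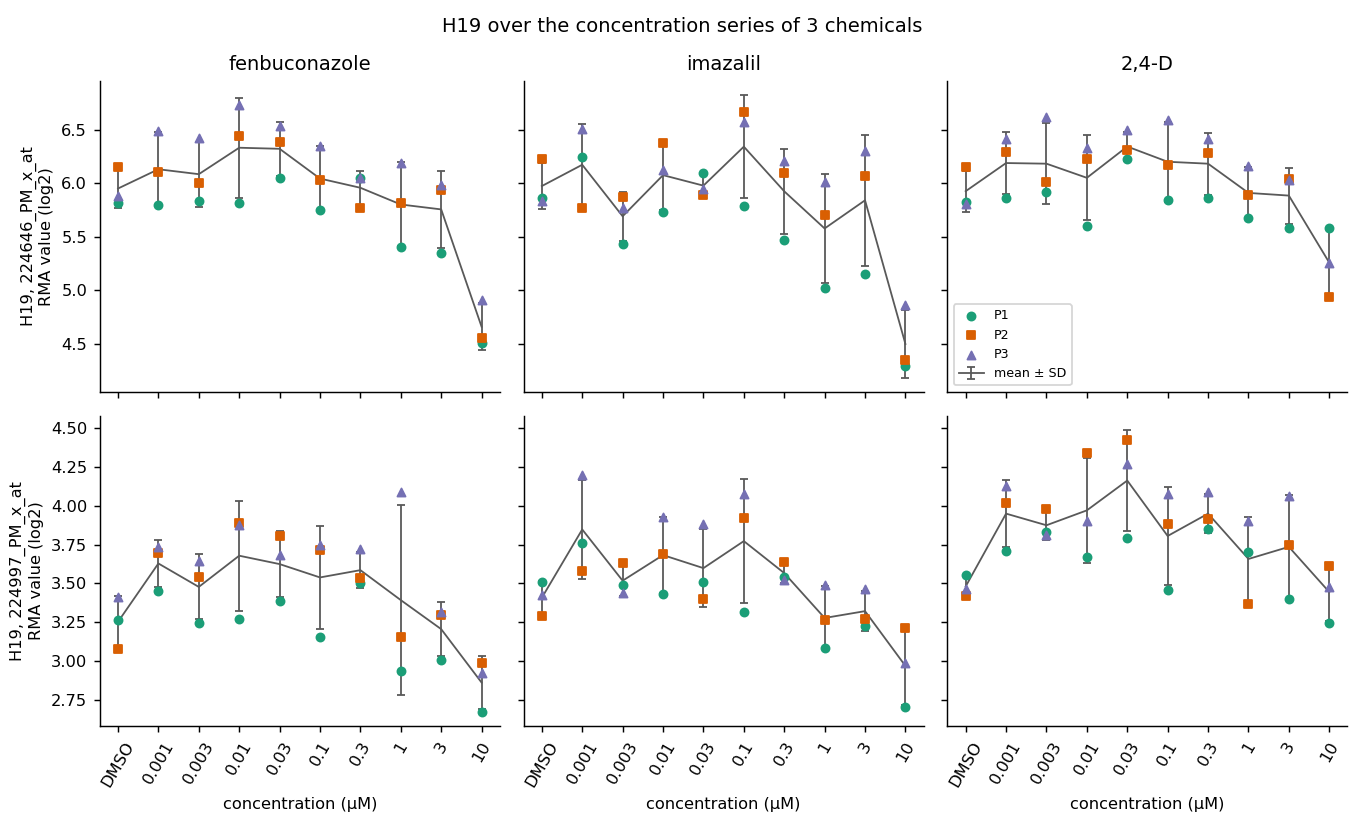
Log2 RMA level of H19 (vertical axis; upper row the brighter probe set, lower row the dimmer one) in DMSO and at 9 concentrations in µM (horizontal axis, evenly spaced steps) of 3 chemicals. Points are single arrays marked by P code, and the line joins means with SD (n = 3); at 10 µM the upper-row arrays of fenbuconazole lie at 4.51 to 4.91, below every DMSO array of that row.

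Because 3 DMSO arrays are few, the 10 µM arrays were also set against the 15 arrays of the 5 lowest concentrations (0.001 to 0.1 µM) of the same chemical. For fenbuconazole the 3 arrays at 10 µM (4.51 to 4.91) lay below all 15 low-concentration arrays, whose lowest, median and highest levels were 5.75, 6.10 and 6.73. The log2 difference was -1.52 (SE 0.18, interval -1.89 to -1.16), 2.87-fold lower. For imazalil the arrays at 10 µM (4.29 to 4.86) lay below low-concentration arrays of 5.43, 5.95 and 6.67, with a difference of -1.55 (SE 0.22, interval -2.00 to -1.11), 2.94-fold lower. For 2,4-D the arrays at 10 µM (4.94 to 5.58) also lay below those at low concentrations (5.60, 6.23 and 6.62), by the smallest margin of the 3 chemicals. That difference was -0.93 (SE 0.17, interval -1.29 to -0.58), 1.91-fold lower.

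The second H19 probe set moved in the same direction with smaller differences. At 10 µM fenbuconazole its levels were 2.67, 2.99 and 2.92, against low-concentration arrays of 3.15, 3.68 and 3.89 (lowest, median and highest), a log2 difference of -0.73 (SE 0.17). With imazalil they were 2.70, 3.21 and 2.99, against 3.32, 3.63 and 4.20, a difference of -0.72 (SE 0.14). With 2,4-D they were 3.25, 3.61 and 3.48, against 3.46, 3.90 and 4.42, a difference of -0.51 (SE 0.14) with overlapping arrays. The DMSO arrays of this probe set lay low in their own sets, at 3.08 to 3.41, 3.29 to 3.51 and 3.42 to 3.55 for fenbuconazole, imazalil and 2,4-D. Against DMSO its differences at 10 µM were accordingly -0.39, -0.44 and -0.04 for the 3 chemicals in the same order, and none was called.

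Against the low concentrations, 2 of the 7 member probe sets were called for fenbuconazole and 2 for imazalil, both of H19 each time, and 1 for 2,4-D, the brighter one of H19. Over all probe sets these comparisons called 1.06%, 1.2% and 0.225%. Leaving out P2 from every group ended the calls of the brighter H19 probe set for imazalil (difference then -1.45) and 2,4-D (-0.77), and leaving out P3 ended that for 2,4-D (-0.78). The calls of the dimmer H19 probe set were lost for fenbuconazole without P2 (-0.72) or P3 (-0.68) and for imazalil without P2 (-0.86) or P3 (-0.62).

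At 3 µM the H19 arrays overlapped those of the low concentrations for every chemical and for both probe sets. The levels of the brighter one were 5.34, 5.94 and 5.98 with fenbuconazole, 5.15, 6.07 and 6.30 with imazalil and 5.58, 6.04 and 6.03 with 2,4-D. Their log2 differences from the low concentrations were -0.43 (SE 0.18), -0.21 (SE 0.22) and -0.31 (SE 0.17). At this concentration 0 member probe sets were called, with 0.00914%, 0.0822% and 0% of all probe sets called for fenbuconazole, imazalil and 2,4-D, the last with 2000 at an unadjusted p under 0.05 by limma. At 1 µM the levels were 5.40, 5.81 and 6.19 with fenbuconazole, 5.02, 5.70 and 6.01 with imazalil and 5.68, 5.89 and 6.16 with 2,4-D, so the imazalil P1 array was the lowest of all arrays below 10 µM.

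The H19 level also differed between the batches of cells, a property that the choice of genes did not use. Averaged over all groups of a set, the brighter probe set was higher in P3 than in P1 by 0.52 ± 0.08 (log2, SE) in the fenbuconazole set, 0.51 ± 0.12 in the imazalil set and 0.41 ± 0.09 in the 2,4-D set. The DMSO arrays did not show this, with P1 and P3 at 5.81 and 5.88, 5.86 and 5.84, and 5.82 and 5.81 in the same sets. P1 lay above P3 at 10 µM 2,4-D (5.585 and 5.252) and at 0.03 µM imazalil (6.094 and 5.948). P2 exceeded P1 by 0.28, 0.39 and 0.23 in the same sets. The moderated F test of the P code (limma, Benjamini-Hochberg over all probe sets) gave adjusted p = 0.000498, 0.0249 and 0.0224. The dimmer set was 0.43 ± 0.08, 0.28 ± 0.08 and 0.30 ± 0.08 higher in P3 than in P1, with adjusted p = 0.00877, 0.125 and 0.0606. The P code called 2 of the 7 member probe sets for fenbuconazole, 1 for imazalil and 1 for 2,4-D, all of H19, where 2.86%, 3.13% and 4.82% of all probe sets were called. The DMSO arrays are shared by the 3 sets, so these tests are not fully separate. DLK1, AFP and GPC3 had adjusted p between 0.36 and 0.992 in this test.

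The difference at 10 µM was seen within each batch with the azoles, and in P1 with 2,4-D it was not distinct from lower concentrations. Against the mean of the 5 low concentrations of the same P code, the brighter probe set at 10 µM fenbuconazole differed by -1.34, -1.64 and -1.59 in P1, P2 and P3. With imazalil the differences were -1.57, -1.77 and -1.33. With 2,4-D they were -0.30, -1.26 and -1.24, so the P1 difference with 2,4-D was the smallest of the 9 and that of P2 with imazalil the largest. The P1 array at 10 µM 2,4-D (5.585) stood level with the P1 arrays at 3 µM (5.582, difference -0.31) and 0.01 µM (5.597).

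**Figure D2:**
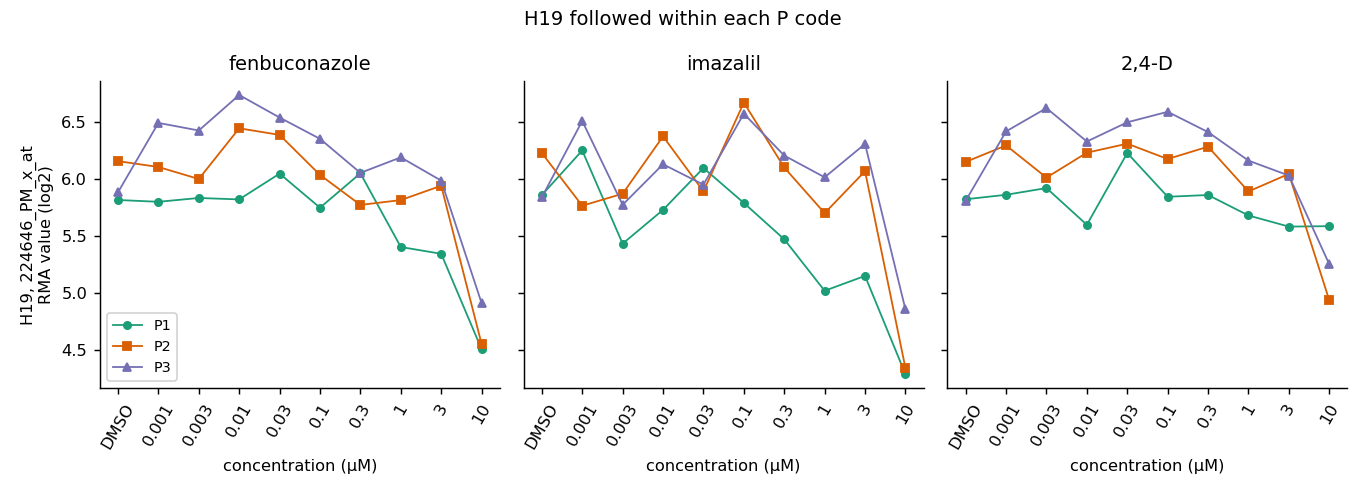
Log2 RMA level of the brighter H19 probe set (vertical axis) in DMSO and at 9 concentrations in µM (horizontal axis, evenly spaced steps), with 1 line for each P code and 1 panel for each chemical. P3 averaged above P1 in all 3 panels, and P1 at 10 µM 2,4-D (5.58) is the array with the least decrease.

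The 3 chemicals were compared with each other at the matched concentration of 10 µM, as 3 pairs, after the DMSO mean of each set had been subtracted. Fenbuconazole and imazalil both carry an azole ring, a triazole in the first and an imidazole in the second, whereas 2,4-D is a phenoxyacetic acid with no azole. For the brighter H19 probe set, fenbuconazole lay 0.18 above imazalil on the log2 scale (SE 0.27), with a 95% interval of -0.35 to 0.72 that includes 0. Fenbuconazole differed from 2,4-D by -0.62 (interval -1.16 to -0.09), and its 3 arrays all lay lower. Imazalil differed from 2,4-D by -0.81 (interval -1.35 to -0.27), also without overlap. For the dimmer H19 probe set the differences were 0.05, -0.35 and -0.40 for the same pairs, and each interval included 0. Of the 7 member probe sets, 0 were called in any pair, where 0.356% of all probe sets were called between fenbuconazole and 2,4-D, 0.389% between imazalil and 2,4-D and 0.269% between fenbuconazole and imazalil. The larger H19 decrease with the azoles than with 2,4-D did not pass the correction over all probe sets in this fit. With the P code as a block, the brighter H19 probe set was called between imazalil and 2,4-D (-0.81, SE 0.18) and not between fenbuconazole and 2,4-D (-0.62, SE 0.18), and with the replicate number of the titles as the block in neither pair.

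AFP was measured at a modest level by 1 probe set, 204694_PM_at, which averaged 4.34 and ranged between 3.34 and 4.81. At 10 µM fenbuconazole it was 4.21, 4.34 and 4.62, against 3.88, 4.02 and 4.30 in DMSO. With imazalil it was 4.17, 4.80 and 4.59, against 4.20, 3.93 and 4.41 in DMSO. With 2,4-D it was 4.16, 4.31 and 4.28, against 4.13, 3.87 and 4.41 in DMSO. The arrays overlapped in every comparison, with log2 differences of 0.32 (SE 0.22), 0.34 (SE 0.21) and 0.11 (SE 0.15). Against the low concentrations the differences were 0.20, 0.14 and -0.17, each with an interval that included 0. The 3 differences of AFP from DMSO were thus all above 0 and none was called. Those of the brighter H19 probe set were all below 0. The AFP differences share the same DMSO arrays, which lay low, averaging 4.07, 4.18 and 4.14 for fenbuconazole, imazalil and 2,4-D. At 0.001 µM the AFP means were already 4.36, 4.39 and 4.43. Of all treated groups, only 0.03 µM fenbuconazole (4.015) averaged below its DMSO arrays. With 2,4-D, the 10 µM mean (4.25) was the lowest treated mean of its set. The shared sign is therefore not read as a course opposite to H19.

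DLK1 lay at or below the middle of the array. Its probe sets averaged 2.58 (235600_PM_at) and 2.20 (209560_PM_s_at), and 39.4% and 12.1% of all probe sets had lower means. At 10 µM fenbuconazole the levels of the brighter one were 2.58, 2.56 and 2.40, against 2.46, 2.63 and 2.69 in DMSO, and the other differences of both probe sets from DMSO at 10 µM lay between -0.08 and 0.10. At levels this close to the background of the array, a change in DLK1 was not detectable, and its absence is not shown.

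GPC3 also lay near the middle of the array or below it, with means of 2.87 (243243_PM_at) and 2.54 (209220_PM_at), above those of 50.7% and 37.1% of all probe sets. At 10 µM fenbuconazole the brighter set was 2.87, 3.03 and 3.41, against 2.72, 2.71 and 2.90 in DMSO, a difference of 0.32 (SE 0.16) with overlapping arrays. With imazalil the difference was 0.14 (SE 0.14) and with 2,4-D 0.05 (SE 0.18). The other GPC3 probe set did not share this pattern, with differences of 0.03, -0.07 and -0.11, and across the 27 conditions the 2 sets correlated at r = -0.04. Neither was called at 10 µM with any chemical.

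**Figure D3:**
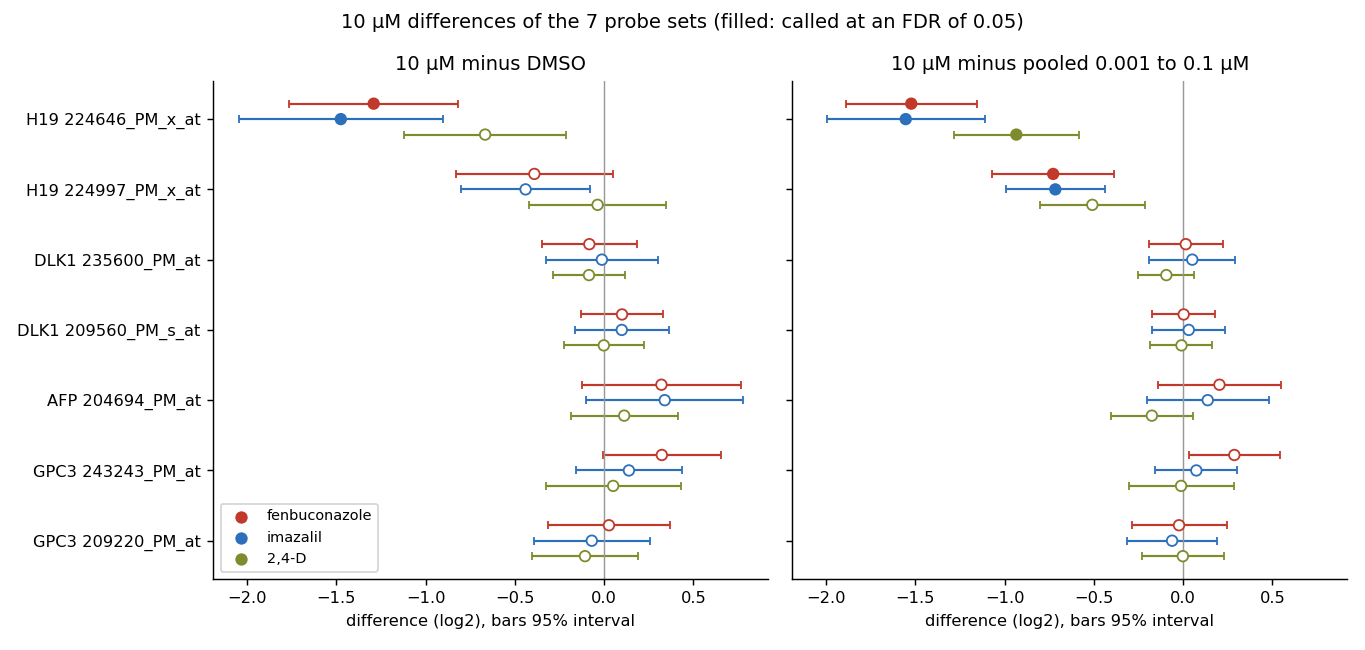
Log2 differences (horizontal axis) of the 7 member probe sets (vertical axis) at 10 µM minus DMSO (left) and minus the pooled 0.001 to 0.1 µM arrays (right), with 95% intervals from the limma fit. Filled points were called at a false discovery rate of 0.05: the brighter H19 probe set in 2 comparisons on the left and 3 on the right, and the dimmer one in 2 on the right.

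**Figure D4:**
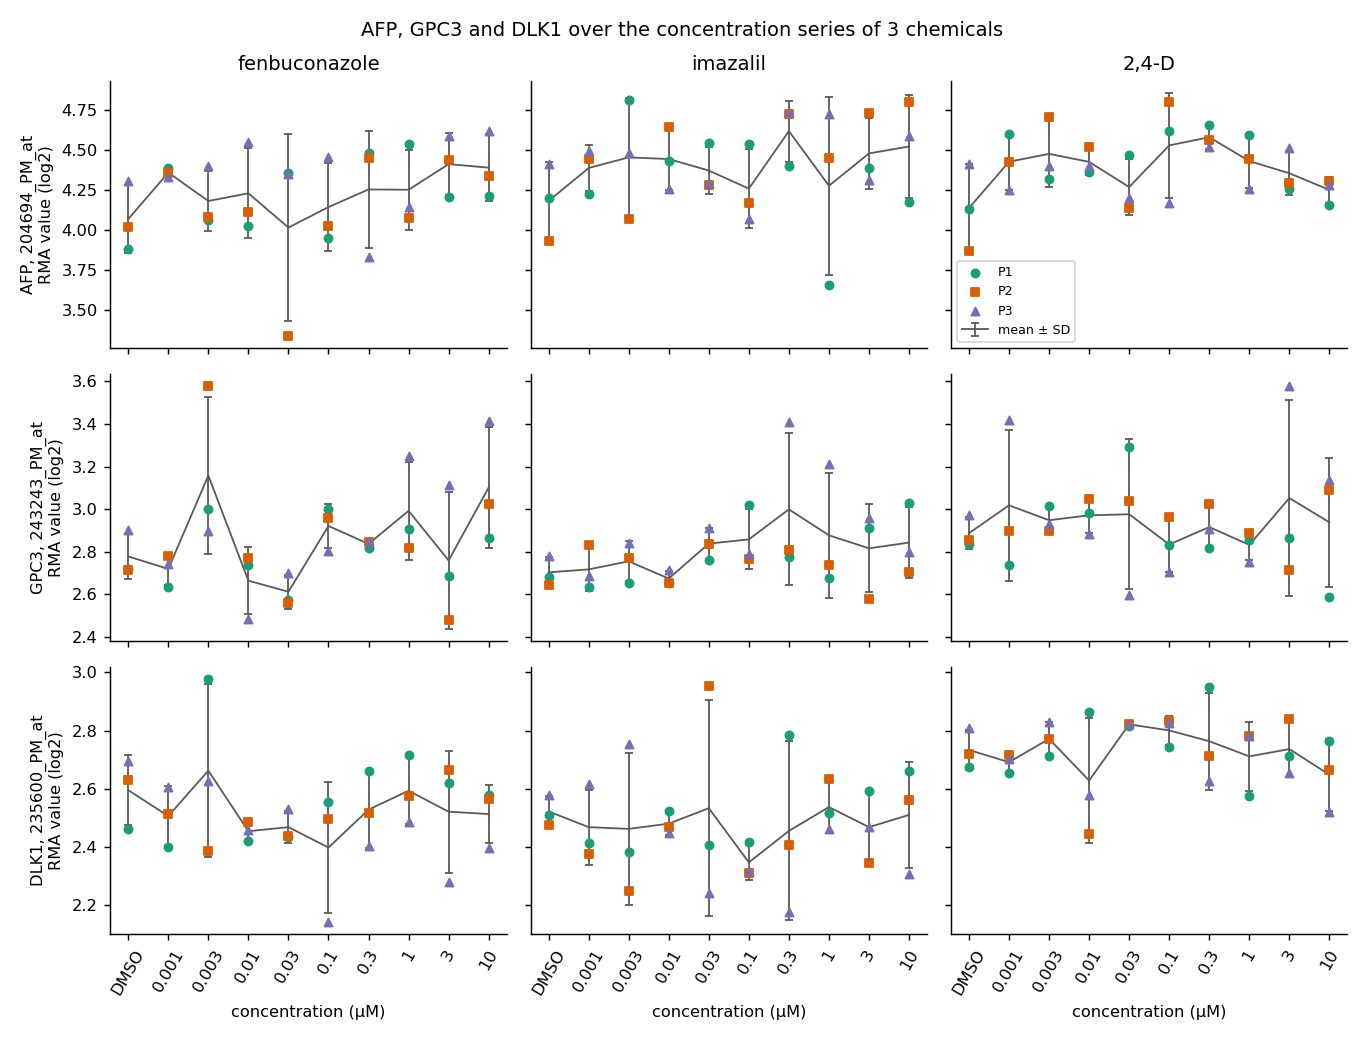
Log2 RMA level (vertical axis) of AFP and of the brighter probe sets of GPC3 and DLK1 in DMSO and at 9 concentrations in µM (horizontal axis, evenly spaced steps) of 3 chemicals. Points are single arrays marked by P code, and the line joins means with SD (n = 3); the arrays at 10 µM overlap those of DMSO in every panel, and AFP stays between 3.34 and 4.81.

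No shared course of the members was seen, although DLK1 and GPC3 lay too near the background to show one. Over the 27 conditions, which share the DMSO arrays of their set, the 2 probe sets of H19 correlated at r = 0.92, and over the 81 treated columns, after the P code means were removed, at r = 0.77. The brighter H19 probe set correlated with the probe sets of DLK1, AFP and GPC3 at r between -0.39 and 0.02 over the conditions. The 2 probe sets of DLK1 correlated with each other at only r = -0.145 and those of GPC3 at -0.04. Low values for these 2 genes therefore cannot be told apart from noise. AFP, measured at a higher level, correlated with the brighter H19 probe set at r = -0.20. The genes whose differences were most like those of the brighter H19 probe set were TXNIP (r = 0.95), an inhibitor of thioredoxin, CYP8B1 (0.95), the sterol 12-alpha-hydroxylase of bile acid synthesis, CD3D (0.94), DCN (0.94), which encodes the matrix proteoglycan decorin, and CLEC3B (0.94), which encodes tetranectin. Over the 81 columns these were r = 0.89, 0.89, 0.89, 0.90 and 0.90. CYP8B1 and CLEC3B were also among the 5 genes most like the dimmer H19 probe set, at r = 0.92 and 0.90. The genes that ran most opposite to H19 were AKR1B10 (-0.93), an aldo-keto reductase, and DIO1 (-0.92), the type 1 deiodinase. F12, SPON2 and MGLL completed the 5 most like the dimmer one, at r = 0.92, 0.91 and 0.90. The likeness of other members was weaker. The 5 genes most like AFP were ASTE1 (r = 0.67), TANC1, CENPQ, CDK8 and NRIP1 (0.61), those most like the brighter DLK1 probe set were USF1 (0.67), IDH3G, HBD, PPP6R2 and KLK10 (0.60), and those most like the brighter GPC3 probe set were UBE2E2-DT (0.63), CHRNA9, NETO2, CBY3 and STON1 (0.61). Over the 81 columns these 15 had r of 0.09 to 0.28.

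The IGF axis holds the ligands, receptors and binding proteins through which IGF2 acts, and its called genes all fell. Of 22 listed genes, all measured, 0 rose and 0 fell against DMSO at 10 µM fenbuconazole, 0 rose and 1 fell with imazalil, and 0 were called with 2,4-D, while 4, 6 and 3 had an unadjusted p under 0.05 by limma. Of all 54715 probe sets, 3557, 4553 and 3035 had such a p against DMSO. Against the low concentrations 2, 4 and 1 of the listed genes fell with the 3 chemicals in the same order and 0 rose, where 1.69%, 2.04% and 0.349% of all 19774 genes were called. The median difference of the list against the low concentrations was -0.14, -0.15 and -0.05, beside medians of -0.01, 0.01 and 0.00 over all genes. IGFBP1, an insulin-repressed binding protein made by hepatocytes, averaged 5.87 ± 0.59 at 10 µM imazalil and 7.13 ± 0.41 in DMSO (log2, SD, n = 3 each), a difference of -1.26 (limma adjusted p = 0.0105). That call was lost without P2 (-1.21) and without P3 (-1.19). IGFBP1 differed from the low concentrations by -1.47 with imazalil (limma adjusted p = 2.44e-05), a call that held without any 1 batch. With fenbuconazole it differed by -0.79 (limma adjusted p = 0.0341), with overlapping arrays, and that call was lost without P2 (-0.51) or P3 (-0.71), under median centring and under the trended robust prior. IGFBP3, the main carrier of IGFs in serum, fell at 10 µM against the low concentrations, with differences of -0.82 for fenbuconazole, -0.83 for imazalil and -0.59 for 2,4-D (limma adjusted p = 3.1e-05, 0.000137 and 0.0153), although its 2,4-D call was lost without any 1 of the 3 batches (differences of -0.71 to -0.54).

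The growth factor IGF1 averaged 3.91 ± 0.17 at 10 µM imazalil (n = 3) and 4.71 ± 0.25 at the low concentrations (SD, n = 15), a difference of -0.80 (limma adjusted p = 0.0163) that lost its call without P2 (-0.69) or P3 (-0.79). With fenbuconazole and 2,4-D its differences were -0.41 and -0.04, neither past the threshold. IGF2BP3, an RNA-binding protein of fetal tissue that binds IGF2 mRNA, differed by -0.47 with imazalil (limma adjusted p = 0.0454), and the call was lost without any 1 batch (-0.54 to -0.41), under median centring and under the trended robust prior. IGF2R, the receptor that clears IGF2, did not pass the threshold, with differences of 0.13, 0.07 and -0.05 from the low concentrations for fenbuconazole, imazalil and 2,4-D.

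Among the other imprinted genes there was 1 call. Of 25 listed, 22 were measured, and at 10 µM against DMSO 0 were called by limma with any chemical (3, 1 and 4 at an unadjusted p under 0.05), with medians of 0.08, 0.03 and -0.03 for fenbuconazole, imazalil and 2,4-D beside 0.00, 0.01 and 0.00 over all genes. Against the low concentrations 0 were called with the azoles, and 1 fell with 2,4-D. This was SNRPN, a splicing factor gene, with a difference of -0.55 (limma adjusted p = 0.0235) that lost its call without P2 (-0.37) or P3 (-0.53). MEG3, the maternally expressed noncoding RNA beside DLK1, was at 2.59, 2.67 and 2.67 at 10 µM of the 3 chemicals, near the array medians, with differences of -0.16, 0.02 and -0.07 from the low concentrations. Of 14 listed neighbours of H19 and IGF2 on chromosome 11, 13 were measured and 0 were called by limma at 10 µM against DMSO (1, 3 and 2 at an unadjusted p under 0.05 for fenbuconazole, imazalil and 2,4-D) or against the low concentrations (1, 4 and 3). Of 12 listed genes of Notch signalling and of 5 other glypicans, all measured, 0 were called by limma at 10 µM against either DMSO or the low concentrations. Against DMSO, 4, 0 and 1 of the Notch genes and 0, 1 and 0 of the glypicans had an unadjusted p under 0.05 with fenbuconazole, imazalil and 2,4-D. Of all 54715 probe sets 3557, 4553 and 3035 had such a p, and 0.496%, 0.662% and 0% of all genes were called after adjustment. For the low concentrations these counts were 4, 1 and 2 of the Notch genes and 1, 3 and 0 of the glypicans, beside 4324, 5542 and 4538 of all probe sets. After adjustment 1.69%, 2.04% and 0.349% of all genes were called there.

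Among the other fetal and progenitor liver genes, CYP3A7 and AKR1B10 rose at 10 µM, where H19 fell, while most of the list did not rise with the azoles. CYP3A7 was already called at 3 µM imazalil against the low concentrations (difference 1.59, limma adjusted p = 5.72e-14). That call held without any 1 batch, and 0 member probe sets were called in that comparison. Of 15 listed, 14 were measured, and at 10 µM against DMSO 2 rose with fenbuconazole and the same 2 with imazalil, and 0 with 2,4-D (3 at an unadjusted p under 0.05 by limma). The share of all genes called was again 0.496%, 0.662% and 0%. Differences above 0 were found for 6, 5 and 8 of the 14 genes with fenbuconazole, imazalil and 2,4-D. The list medians were -0.07, -0.09 and 0.02. CYP3A7, the fetal form of the CYP3A enzymes, averaged 11.28 ± 0.16 at 10 µM fenbuconazole and 9.44 ± 0.04 in DMSO (log2, SD, n = 3 each), a difference of 1.83 (limma adjusted p = 8.01e-10). With imazalil it averaged 11.73 ± 0.14 and in the DMSO arrays of that set 9.44 ± 0.05, a difference of 2.29 (limma adjusted p = 5.24e-15). Its probe set is also of the shared kind, so signal from other CYP3A genes cannot be told apart. AKR1B10 was higher by 0.41 and 0.56 (limma adjusted p = 0.0181 and 0.000436), calls that were both lost without any 1 batch. Against the low concentrations CYP3A7 differed by 2.06, 2.35 and 0.56 and AKR1B10 by 0.53, 0.57 and 0.28 for fenbuconazole, imazalil and 2,4-D, all called by limma (adjusted p of 0.0382 or less). Without P2 or P3 the 2,4-D call of CYP3A7 was lost (0.59 and 0.45), and that of AKR1B10 was lost without any 1 batch (0.24 to 0.33). In the same comparison 1 gene of the list fell with each chemical: SOX4, a transcription factor of progenitor cells, with fenbuconazole (-0.39, limma adjusted p = 0.00777, lost without P2 or P3), IGF2BP3 with imazalil, as above, and CD24, a surface marker of progenitor cells, with 2,4-D (-0.39, limma adjusted p = 0.0177, lost without any 1 batch). AFM, a gene of the albumin cluster next to AFP, fell with imazalil against DMSO (difference -0.65, limma adjusted p = 0.00596), also lost without any 1 batch. Against the low concentrations AFM fell with fenbuconazole (-0.42, limma adjusted p = 0.00463, lost without P1 or P2). With imazalil it fell there by 0.67 (limma adjusted p = 6.12e-05, lost without P2). ALB itself stood at 13.16, 13.19 and 13.17 at 10 µM of the 3 chemicals and differed from the low concentrations by -0.07, -0.02 and -0.04.

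**Figure D5:**
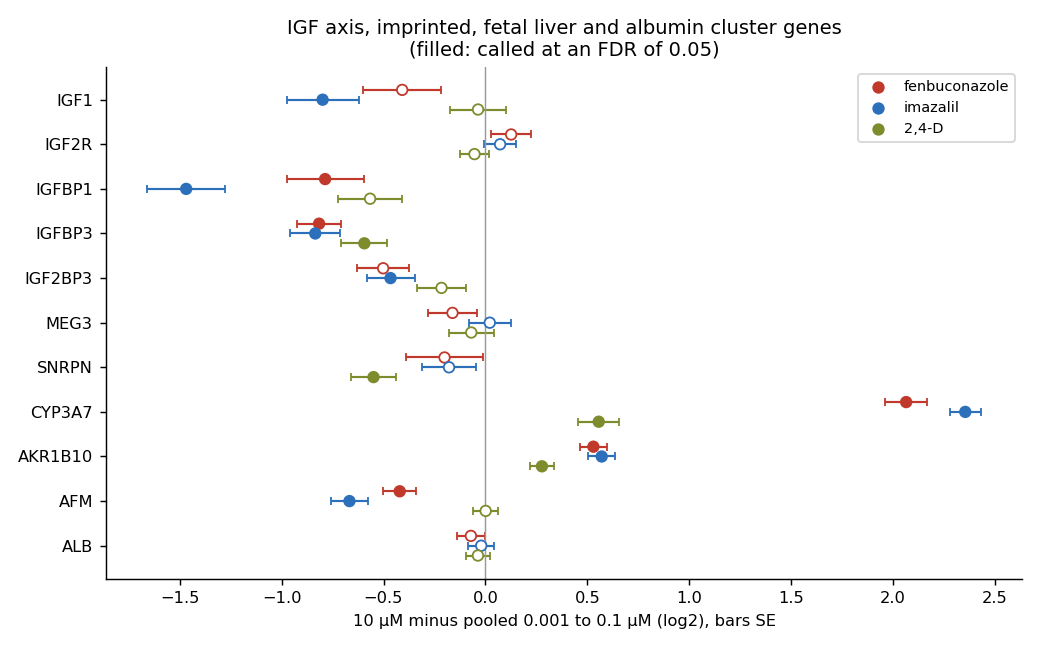
Log2 differences (horizontal axis, bars SE) at 10 µM minus the pooled 0.001 to 0.1 µM arrays for genes of the IGF axis, imprinted genes, fetal liver genes and the albumin cluster (vertical axis), by chemical. Filled points were called at a false discovery rate of 0.05; IGFBP3 lies below 0 and CYP3A7 above 0 with all 3 chemicals, each filled.

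Genes that are known to regulate AFP or H19 gave 1 call. Of 15 listed, 12 were measured, 0 were called by limma against DMSO with any chemical (0, 3 and 0 at an unadjusted p under 0.05), where 0.496%, 0.662% and 0% of all genes were called. When set against the low concentrations, 4, 6 and 1 had an unadjusted p under 0.05, beside 4324, 5542 and 4538 of all 54715 probe sets. After adjustment 1.69%, 2.04% and 0.349% of all genes were called in that comparison. There CEBPA, a hepatocyte transcription factor, rose with imazalil by 0.36 (limma adjusted p = 0.0352), a call lost without any 1 batch (0.29 to 0.44). ZBTB20, a repressor of AFP in the postnatal liver, differed from the low concentrations by -0.12, -0.12 and -0.12 for fenbuconazole, imazalil and 2,4-D. ZHX2, a postnatal repressor of AFP and H19 in mice, differed by -0.21, -0.02 and -0.22. Neither passed the threshold.

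Markers of the cell types in the culture were read beside H19, since fewer cells of a type and less RNA per cell cannot be told apart in these bulk samples. Hepatocyte markers were all above the array medians, 12 of 12 in each set, and of 8 measured biliary markers 4, 4 and 5 lay below them in the fenbuconazole, imazalil and 2,4-D sets. At 10 µM against DMSO, 1 of the 12 hepatocyte markers fell and 0 rose with each azole, and 1 of the 8 biliary markers rose and 0 fell, while 0 of either list were called with 2,4-D (0 and 2 at an unadjusted p under 0.05 by limma). Of all genes, 0.496%, 0.662% and 0% were called there with fenbuconazole, imazalil and 2,4-D. Differences above 0 were found for 5, 4 and 6 of the 8 biliary markers with fenbuconazole, imazalil and 2,4-D, with list medians of 0.10, 0.01 and 0.04. For the hepatocyte markers 3, 3 and 5 of the 12 were above 0, with medians of -0.08, -0.07 and -0.02. The ethanol-inducible enzyme CYP2E1, a hepatocyte gene, fell at 10 µM imazalil against DMSO by 0.92 on the log2 scale (limma adjusted p = 3.35e-08), and the secreted phosphoprotein SPP1, a biliary marker, was higher by 0.86 (limma adjusted p = 2.01e-05). With fenbuconazole they differed by -0.62 and 0.53 (limma adjusted p = 0.00434 and 0.00766), calls that were lost without P1 or P2 for CYP2E1 and without any 1 batch for SPP1. Against the low concentrations 2, 3 and 0 hepatocyte markers fell with fenbuconazole, imazalil and 2,4-D, beside 1.69%, 2.04% and 0.349% of all genes called. They were CYP2E1 (-0.57 and -0.89 with the azoles), CYP8B1 (-0.72 and -0.70), also among the genes most like H19, and CPS1 (-0.41, imazalil only). The calls of CYP2E1 with fenbuconazole and of CYP8B1 with imazalil were lost without P2, and that of CPS1 without any 1 batch. Of the biliary markers only SPP1 was called against the low concentrations. It rose by 0.61 with fenbuconazole and 0.76 with imazalil (limma adjusted p = 1.51e-05 and 1.11e-06), calls that held without any 1 batch. The summed linear level of the 10 mesenchymal markers was 991 to 1174 at 10 µM fenbuconazole, against 1139 to 1488 at the low concentrations and 1170 to 1365 in DMSO. With imazalil it was 985 to 1129, against 1089 to 1553 and 1162 to 1360, and with 2,4-D 1100 to 1172, against 1145 to 1556 and 1201 to 1384. TAGLN and THY1 were below the array medians in every set, and 1 of the 10 genes, COL3A1, was called, with imazalil at -0.82 against DMSO (limma adjusted p = 0.00116), a call lost without P2 (-0.84) or P3 (-0.82) and when the gene's probe sets were averaged, which moved the difference to -0.27. COL3A1 differed from the low concentrations by -0.78 with imazalil (limma adjusted p = 3.12e-05). DCN, also among the genes most like H19 (r = 0.90 over the 81 columns), is on the mesenchymal list and was not called. The summed level of 12 cell cycle genes was 2729 to 3068 at 10 µM fenbuconazole, against 2264 to 2769 at the low concentrations and 2363 to 2722 in DMSO. With imazalil it was 2809 to 2828, against 2299 to 2961 and 2377 to 2692, and with 2,4-D 2586 to 3298, against 2345 to 2868 and 2504 to 2873. Compared with the low concentrations, 2 of the 12 were called with fenbuconazole, CDK1 (0.39) and AURKA (0.38), 1 with imazalil, MCM6 (0.29), and 0 with 2,4-D (5 at an unadjusted p under 0.05 by limma), and all 3 calls were lost without any 1 batch. In that comparison 11, 9 and 10 of the 12 lay above 0 with fenbuconazole, imazalil and 2,4-D, with list medians of 0.29, 0.19 and 0.14. Against DMSO 11, 11 and 10 did, with medians of 0.21, 0.24 and 0.15. Hepatocyte marker sums were 39188 to 43625 at 10 µM fenbuconazole, against 41707 to 45978 at the low concentrations and 42451 to 43546 in DMSO. With imazalil they were 37523 to 42446, against 41334 to 45100 and 41909 to 43041, and with 2,4-D 42995 to 44519, against 43842 to 46222 and 43152 to 44358. Biliary marker sums were 1527 to 1606 at 10 µM fenbuconazole, against 1268 to 1476 and 1328 to 1391, 1357 to 1498 with imazalil, against 1339 to 1527 and 1294 to 1376, and 1383 to 1411 with 2,4-D, against 1358 to 1542 and 1327 to 1404. These sums are linear, so bright genes such as SPP1 (8.86 at 10 µM imazalil and 7.99 in DMSO, log2) weigh more than dim ones. KRT19, another biliary marker, was not called. With 1 P code left out, KRT19 differed from the low concentrations by 0.02 to 0.10 with fenbuconazole, -0.26 to -0.21 with imazalil and -0.12 to -0.03 with 2,4-D. The part of these marker shifts in the H19 values was not tested.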

How the data were processed

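HepaRG cells on Affymetrix HT HG-U133+ PM arrays were re-analysed from the log2 values deposited by the authors, who had applied RMA once per chemical, the 3 DMSO arrays included every time. RMA and Partek are the tools in the submitters' processing notes, with versions not given in the sources used here. The study's other data sets were not analysed here. Group means of the 30 columns of a set were fitted with limma 3.58.1 (eBayes) and data.table (version 1.17.8) in R 4.3.3, with Benjamini-Hochberg adjustment over 54715 probe sets at 0.05; figures used matplotlib 3.10.9 in Python 3.11.15. Chemicals were compared after subtraction of each set's DMSO mean. The P code term was tested with group in the model. The fits were tested on simulated data. The median value per array was 2.81 to 2.97, and the precision is limited by the number of arrays. Genes other than the members stand as their single-symbol probe set of highest mean. The members and the 12 gene lists were chosen with earlier results of these data known. The text names every member, up to 4 called genes per list and comparison, single genes needed to read a member, and for each member the 5 genes most like it. Alternatives were a replicate block, leaving out a P code, median centring, a filter on dim probe sets, a trended robust prior and averaging of a gene's probe sets.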

Additional observations from a re-analysis of the deposited data

Results flagged for a closer look

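At 10 µM against the low concentrations of the same P code, AFP differed by 0.06, 0.36 and 0.20 (log2, P1 to P3) with fenbuconazole and by -0.31, -0.21 and -0.0014 with 2,4-D, so that every batch lay above 0 with the first and below 0 with the second, P3 with 2,4-D by almost nothing. With imazalil the differences were -0.34, 0.48 and 0.27. The mean effects of fenbuconazole and 2,4-D differed by 0.38, and this difference was not tested. Relative to DMSO, the fenbuconazole effect on AFP exceeded that of 2,4-D by 0.21, with an interval of -0.20 to 0.62.

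Several related genes differed between chemicals at 10 µM by the test of the difference itself (limma, Benjamini-Hochberg over all probe sets). Fenbuconazole minus 2,4-D gave log2 differences of 1.46 for CYP3A7, 0.46 for SPP1, -0.46 for AFM and -0.80 for CYP2E1. Imazalil minus 2,4-D gave 1.92 for CYP3A7, 0.80 for SPP1, 0.37 for AKR1B10, -0.60 for COL3A1, -0.66 for AFM, -1.07 for IGFBP1 and -1.09 for CYP2E1. Fenbuconazole minus imazalil gave 0.59 for COL3A1 and -0.33 for SPP1.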

How the results depend on the processing

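The direction of the brighter H19 probe set at 10 µM held under every alternative tried. Averaging its probe sets moved its difference from DMSO to -0.84 for fenbuconazole, where the call was lost, to -0.96 for imazalil, and to -0.35 for 2,4-D. With the P code as a replicate block, the comparison with the low concentrations called 984 probe sets for imazalil (655 without the block; the title number as the block is the same grouping and also gave 984) and 257 for 2,4-D (123 without), of which 2 were members in place of 1, the dimmer H19 probe set being added. Against DMSO the P code block called 3 probe sets for 2,4-D in place of 0, and for imazalil minus 2,4-D it called 322 in place of 213 and 1 member, the brighter H19 probe set, in place of 0; it ended or added no other member call. Deviations from the group means within a P code had an average correlation of 0.098 in the fenbuconazole set, 0.094 in the imazalil set and 0.117 in the 2,4-D set, with single pairs as low as -0.293. The fits reported have no block because the authors' methods name no replicate correction for the Affymetrix arrays. An average over all probe sets does not describe H19, whose brighter probe set had a called P code term in all 3 sets. The best correlation of an array was with its own code for 22, 23 and 26 of the 30. For fenbuconazole at 3 µM against the low concentrations, median centring and the filter on dim probe sets each called 9 and the trended prior 10, in place of 5. For 2,4-D the filter called 2 against DMSO and 1 at 3 µM in place of 0, and the trended prior called 1 against DMSO in place of 0 and 228 against the low concentrations.

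Leaving out 1 P code from every group, which leaves 2 arrays a group, gave these ranges. For the brighter H19 probe set the difference from DMSO at 10 µM was -1.45 to -1.14 for fenbuconazole, -1.72 to -1.27 for imazalil and -0.88 to -0.40 for 2,4-D. Its difference from the low concentrations at 10 µM was -1.62 to -1.47, -1.67 to -1.45 and -1.25 to -0.77, and at 3 µM -0.51 to -0.38, -0.38 to 0.04 and -0.38 to -0.23. Between chemicals it was -0.74 to -0.40 for fenbuconazole minus 2,4-D, -1.001 to -0.55 for imazalil minus 2,4-D and 0.14 to 0.27 for fenbuconazole minus imazalil. Member probe sets called were 0 to 1, 0 to 1 and 0 against DMSO, and 1 to 2, 0 to 2 and 0 to 1 against the low concentrations. All probe sets called numbered 64 to 127, 48 to 87 and 0 against DMSO, 141 to 368, 116 to 347 and 8 to 45 against the low concentrations, and 1 to 3, 16 to 207 and 0 at 3 µM. Between chemicals they numbered 116 to 162, 88 to 115 and 56 to 89 in the order above. Of 11 list gene calls against DMSO, 4 held in all 3 of these fits, and of 30 against the low concentrations, 12 did. Small differences from the low concentrations at 10 µM, not past the threshold, changed sign without 1 P code. For ALB they were -0.15 to 0.015 with fenbuconazole, -0.080 to 0.065 with imazalil and -0.075 to 0.023 with 2,4-D, and for MEG3 -0.082 to 0.15 with imazalil and -0.15 to 0.029 with 2,4-D. For ZHX2 with imazalil they were -0.13 to 0.067, and with 2,4-D -0.13 to 0.021 for IGF1 and -0.14 to 0.084 for IGF2R. Leaving out the 2 2,4-D arrays that share a sample code in their labels, an alternative added after the data were seen, left the H19 call against the low concentrations in place. Under the filter on dim probe sets, those of DLK1 and the dimmer one of GPC3 drop out in every set, and the brighter one of GPC3 in the imazalil set. The cause of these movements was not tested.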
